A study of Mus musculus with 33 samples.

Results

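The genes described here encode the subunits and assembly factors of the proteasome in mouse hippocampus. They are the genes whose symbol begins with Psm, followed by one of the letters a to g and a digit. Each was read by its brightest probe set among those that name 1 gene, and had to reach a mean signal above 13 over 33 arrays. Of 49 such symbols, 47 passed, out of 12971 genes tested in all. The 2 left out were Psma8, an alpha subunit known from testis, at 5.35, and Psmb11, the thymus-specific beta subunit, at 4.48. The dimmest genes that passed were Psmb8 at 23.7, Psmb9 at 23.8 and Psmc3ip at 26.4. The symbol also takes in 2 genes that are not proteasome subunits or assembly factors. Psmc3ip encodes a partner of the recombinases of meiosis, and Psme3ip1 a protein that binds the activator Psme3. Psme2, the partner of Psme1 in an activator ring, was read only by a probe set that also names Psme2b, and is not among the 47.

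Hippocampal RNA (right side) from male animals of an SJL × C57BL/6J background was measured on Affymetrix MOE430 2.0 arrays, 1 per animal. The 3 groups held 11 animals each: wild-type littermates dosed with vehicle, heterozygous Tg2576 mice dosed with vehicle, and heterozygous Tg2576 mice dosed with TO901317. Tg2576 carries human APP with the Swedish mutation of familial Alzheimer's disease, driven by the prion promoter, and TO901317 activates the liver X receptors and was given by mouth at a daily 50 mg per kg. All animals were 20 weeks old and were saline-perfused. Dosing lasted 7 days per the design text and 5 days per the treatment protocol. The 33 arrays include no wild-type animals given TO901317. The labels call the arrays biological replicates.

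The proteasome degrades proteins that carry chains of ubiquitin. Its barrel, the 20S core, is made of outer rings of alpha subunits and inner rings of beta subunits, and Psmb5, Psmb6 and Psmb7 carry the active sites. A 19S cap recognises the substrate, removes its ubiquitin and unfolds it. The cap has a base with a ring of ATPases (the Psmc genes) and a lid built of Psmd genes. Dedicated chaperones assemble the core and the cap, and interferons switch on Psmb8, Psmb9 and Psmb10, which replace the catalytic subunits in the immunoproteasome. Neurons use the proteasome at synapses, and it has long been studied in Alzheimer's disease.

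Tissue and array checks were as follows. Hippocampal markers gave signal on every array, for instance Neurod6, a transcription factor of pyramidal neurons, at signals of 434 to 846. The dimmest were Tdo2, at 15.6 to 102, and Prox1, at 23.1 to 83.9. Tdo2 differed between groups, as given below. Array medians lay between 19.5 and 28.9. The 3' over 5' Gapdh signal ratio (log2), a sign of RNA integrity, was 0.11 and 0.079 in Tg2576 vehicle replicates 3 and 4, and below 0 on the other 31 arrays. The mouse App probe sets need not read the human transcript, so the transgene was not checked. In bulk tissue, fewer cells of a type and less RNA per cell cannot be told apart. Signals below are linear array intensities, and differences are on the log2(signal + 16) scale, where a value of 0.1 is a small difference and changes of dim genes are understated.

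The stretches before the transcription start sites of Psmc6, Psmd12, Psmd6 and Psmg4 are shown because Psmc6 and Psmd12 followed Psmb2, which has no entry in the table, in order of p in Tg2576 vehicle against wild type, and because Psmg4 and Psmd6 had the smallest p in the other comparisons. They are 250 bases long, 5′ to 3′ along the gene, from RefSeq on GRCm38.p6. The capitals mark CCGGAA, the core of sites for ETS factors, and TGANNNNGC, where N is any base, on either strand. TGANNNNGC is a loose pattern for the core of the antioxidant response element, which Nfe2l1 and Nfe2l2 bind to switch on proteasome genes. It also takes in stretches that differ from that element. Psmc6 lies at chr14:45329574-45329823 on the plus strand, Psmd12 at chr11:107479278-107479527 on the plus strand, Psmd6 at chr14:14120946-14121195 on the minus strand, and Psmg4 at chr13:34162714-34162963 on the plus strand.
Psmc6: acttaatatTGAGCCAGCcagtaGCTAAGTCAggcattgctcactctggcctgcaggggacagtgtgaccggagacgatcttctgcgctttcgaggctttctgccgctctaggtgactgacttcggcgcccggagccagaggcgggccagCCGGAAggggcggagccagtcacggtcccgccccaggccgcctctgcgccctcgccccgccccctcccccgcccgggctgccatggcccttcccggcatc
Psmd12: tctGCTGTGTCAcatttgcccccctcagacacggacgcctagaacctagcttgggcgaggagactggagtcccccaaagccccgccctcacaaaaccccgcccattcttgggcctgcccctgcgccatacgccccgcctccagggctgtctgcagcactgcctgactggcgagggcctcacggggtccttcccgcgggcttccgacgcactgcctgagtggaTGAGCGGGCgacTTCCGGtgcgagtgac
Psmd6: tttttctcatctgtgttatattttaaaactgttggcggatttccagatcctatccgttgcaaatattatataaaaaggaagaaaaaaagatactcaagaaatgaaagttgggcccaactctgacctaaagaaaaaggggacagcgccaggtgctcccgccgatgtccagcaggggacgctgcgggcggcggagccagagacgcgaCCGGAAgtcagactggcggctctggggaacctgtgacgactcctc
Psmg4: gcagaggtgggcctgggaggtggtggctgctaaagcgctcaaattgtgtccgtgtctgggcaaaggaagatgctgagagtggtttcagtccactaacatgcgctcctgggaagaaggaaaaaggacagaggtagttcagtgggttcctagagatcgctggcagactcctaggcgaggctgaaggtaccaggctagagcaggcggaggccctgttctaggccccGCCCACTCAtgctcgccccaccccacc

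The Psmc6 and Psmd12 windows each held 1 CCGGAA and 2 TGANNNNGC. Psmd6 held 1 CCGGAA and no TGANNNNGC, and Psmg4 held 1 TGANNNNGC and no CCGGAA. Among the 47 genes, 40 matched the table, with 43 windows, against 21263 windows of all protein-coding genes. CCGGAA stood in 19 of the 43 windows (44.2%), against 15.0% of all windows. TGANNNNGC stood in 17 (39.5%), against 35.3%, and the CCAAT box, written CCAAT, in 15 (34.9%), against 35.4%. The core of the interferon response element stood in 3 (6.98%), against 2.96%, and TATAAA in 4 (9.3%), against 11.6%. All motifs were searched on both strands. These are matches of letters, not sites of binding. The 47 genes lie on 16 chromosomes, and Psmb5 is the neighbour of Psmb11 on chromosome 14.

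The first comparison set Tg2576 against wild type, both on vehicle, and asked what the APP transgene does to these genes. Most proteasome genes read slightly higher in Tg2576, and none passed the test. The log2 difference was above 0 for 43 of the 47 genes, against 53.1% of all genes tested. The median difference was 0.068 over the 47 genes and 0.007 over all genes. The 47 differences ran from -0.088 for Psmd9, a chaperone of the base, to 0.28 for Psmb2, and their standard errors from 0.034 to 0.117. At a limma adjusted p under 0.05, 0 of the 47 were called, against 0.231% of all genes (30 genes, 16 higher and 14 lower). At an unadjusted p under 0.05, 8 of the 47 were higher, against 6.31% of all genes, and 0 were lower, against 5.46%.

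**Figure D1:**
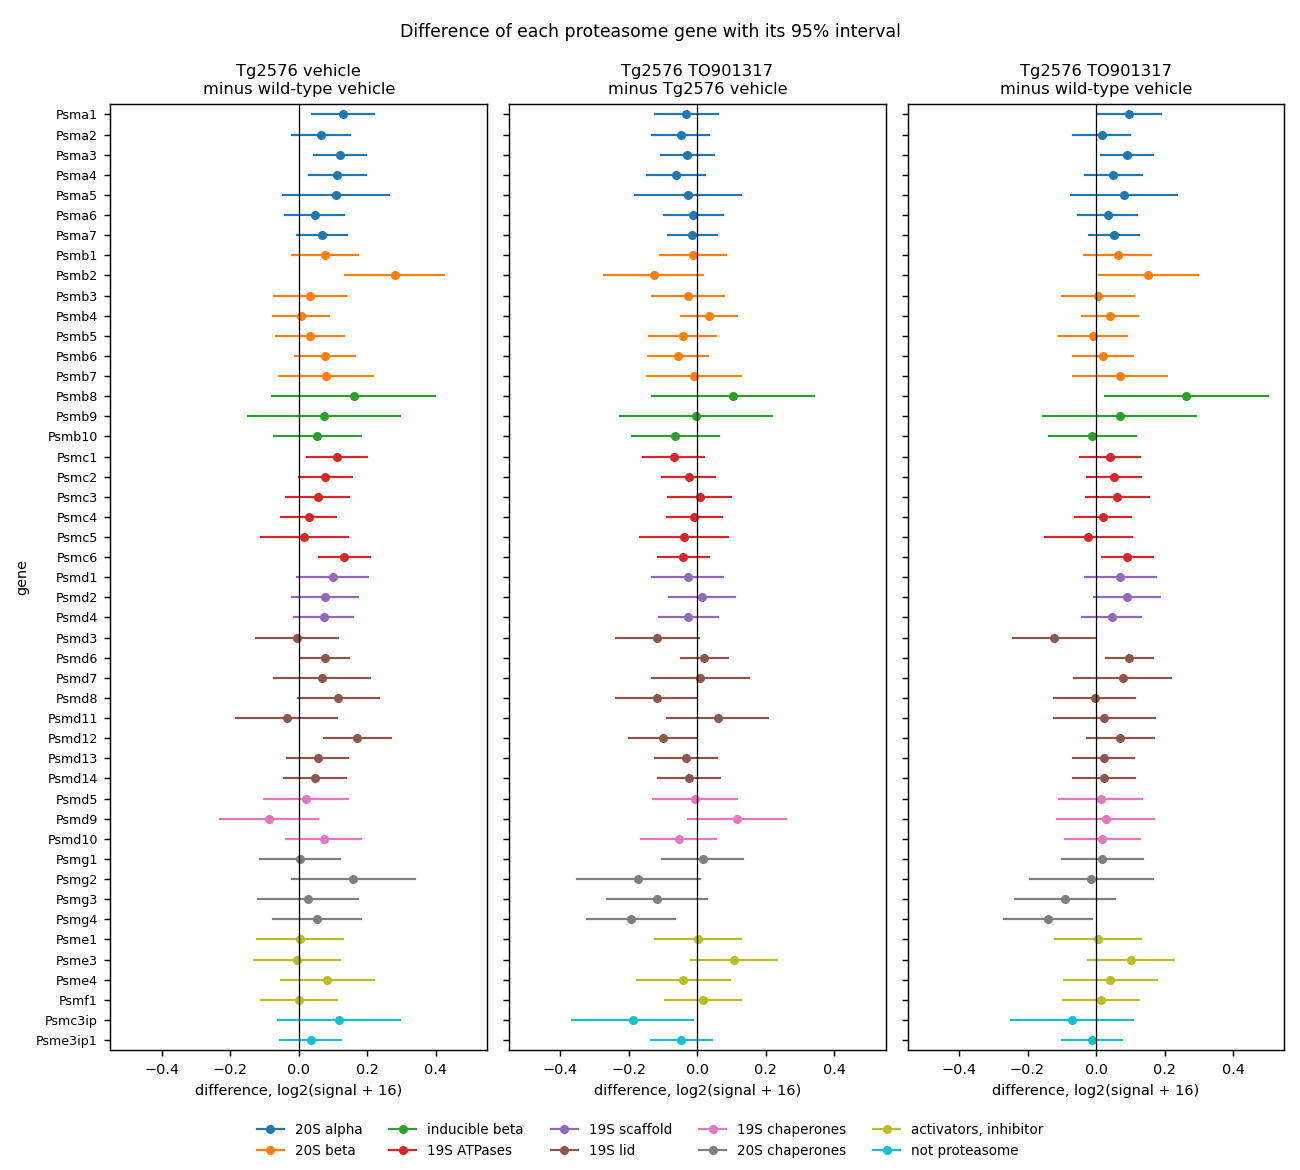
Log2 differences of the 47 proteasome genes in the 3 comparisons, grouped by subcomplex; points are limma estimates with their 95% confidence intervals, and the horizontal axis is the difference in log2(signal + 16). In Tg2576 vehicle against wild type 43 of 47 lie above 0, and in TO901317 against vehicle 12 of 47 do.

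Psmb2, a beta subunit with no active site, had the smallest p. Its signal was 357 to 585 with a median of 460 in wild type, 443 to 660 with a median of 560 in Tg2576 vehicle, and 399 to 605 with a median of 504 in Tg2576 with TO901317. Of the Tg2576 vehicle animals, 10 of 11 lay above the wild-type median, and 3 lay above the highest wild-type animal, so the groups overlapped. The means were 452 ± 61.6 and 552 ± 70.9 (SD, n = 11 each), a log2 difference of 0.28 or 1.21-fold (SE 0.07 on the log2 scale, limma adjusted p = 0.0779). Psmb2 passed without wild-type replicate 5 (adjusted p = 0.0206), without Tg2576 vehicle replicate 8 (adjusted p = 0.0439) and with the array median in the fit (adjusted p = 0.0408). Other settings weakened it. Its limma adjusted p was 0.158 with only the 2 groups compared in the fit, and 0.143 without wild-type replicate 2. Without both Tg2576 vehicle arrays of high Gapdh ratio, the smallest adjusted p among the 47 genes was 0.177, that of Psmc6.

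Psmc6, one of the ATPases that unfold substrates, read 511 to 608 with a median of 549 in wild type and 563 to 661 with a median of 602 in Tg2576 vehicle. All 11 Tg2576 vehicle animals lay above the wild-type median and 5 above the wild-type maximum. The difference was 0.13 (SE 0.04, limma adjusted p = 0.112). A second Psmc6 probe set differed by 0.14 and a dim one by 0.017.

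Psmd12, a structural subunit of the lid, read 350 to 497 with a median of 398 in wild type and 405 to 531 with a median of 459 in Tg2576 vehicle. All 11 Tg2576 vehicle animals were again above the wild-type median, but only 1 was above the maximum. The difference was 0.17 (SE 0.05, limma adjusted p = 0.121), and without wild-type replicate 5 its adjusted p was 0.034.

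**Figure D2:**
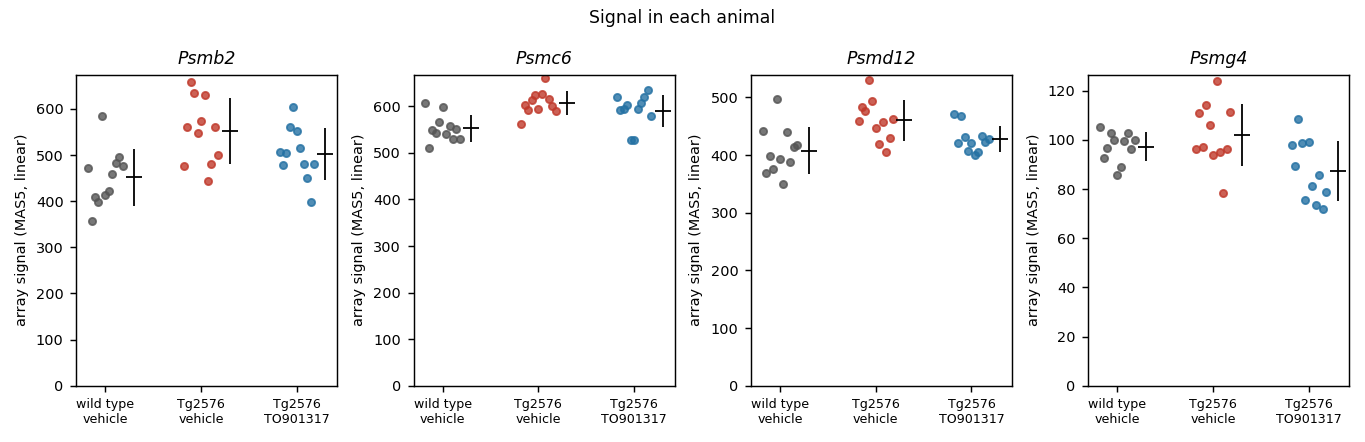
Signals (linear scale) of Psmb2, Psmc6, Psmd12 and Psmg4 in each of the 33 animals, by group; each point is an animal, and the crosses give the group mean with a vertical line of ± 1 SD. The groups overlap in all 4 genes, with Psmb2, Psmc6 and Psmd12 highest on average in Tg2576 vehicle and Psmg4 lowest with TO901317.

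The alpha ring, whose subunits form the gate of the barrel, lay above 0 in 7 of 7 genes, with a median difference of 0.109. In it 3 of 7 genes were higher at an unadjusted p under 0.05, against 6.31% of all genes. By the same count the ATPases had 2 of 6, the lid 2 of 8 and the constitutive beta ring 1 of 7. Psma1 differed by 0.13 (SE 0.05, limma adjusted p = 0.215), from 533 ± 36.4 to 585 ± 43.8, and 6 of 11 Tg2576 vehicle animals lay above the wild-type maximum. Psma4 differed by 0.11 (adjusted p = 0.25). Psma3, named here after its values were seen, read 1255 to 1463 in wild type with a median of 1363, and 1265 to 1596 in Tg2576 vehicle with a median of 1478. Of these Tg2576 animals 7 of 11 exceeded every wild-type animal, and the difference was 0.12 (SE 0.04, adjusted p = 0.153).

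The constitutive beta ring also lay above 0 in 7 of 7 genes, with a median of 0.076. Its catalytic members differed less than Psmb2. Psmb5, the chymotrypsin-like subunit, read 979 to 1375 in wild type with a median of 1184, and 1039 to 1372 in Tg2576 vehicle with a median of 1194. The Psmb5 difference was 0.034 (95% confidence interval -0.065 to 0.132, limma adjusted p = 0.853). Psmb6, the caspase-like subunit, differed by 0.077 (interval -0.010 to 0.164, adjusted p = 0.503). Psmb7, the trypsin-like subunit, differed by 0.08 (interval -0.057 to 0.217, adjusted p = 0.707).

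Of the inducible subunits, Psmb8 and Psmb9 were dim and had wide intervals. Psmb10 was brighter, at a mean of 245 in wild type, with a standard error of 0.063. Psmb8 read 4.69 to 32.7 in wild type with a median of 17.97, 13.7 to 32.3 in Tg2576 vehicle with a median of 26.1, and 13.4 to 41.5 with TO901317 with a median of 28.2. Its difference between the vehicle groups was 0.16 (interval -0.077 to 0.397, limma adjusted p = 0.641). For Psmb9 it was 0.074 (interval -0.149 to 0.296) and for Psmb10 0.054 (interval -0.073 to 0.181). Psmb8, Psmb9 and Psmb10 thus had intervals that include 0 and also include differences larger than the median of the 47 genes.

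The 6 ATPases of the base all lay above 0, with a median of 0.066. Besides Psmc6, Psmc1 differed by 0.11 (SE 0.04, limma adjusted p = 0.291), and 10 of 11 Tg2576 vehicle animals were above the wild-type median. Of the scaffold and ubiquitin receptor genes, 3 of 3 lay above 0, with a median of 0.076. Psmd1, a large scaffold subunit, differed by 0.099 (adjusted p = 0.454), and Psmd2, its partner, by 0.076 (adjusted p = 0.563). The lid lay above 0 in 6 of 8 genes, with a median of 0.062. Psmd6, a lid subunit, differed by 0.077 (adjusted p = 0.363), Psmd8 by 0.12 (adjusted p = 0.442) and Psmd3 by -0.0056 (adjusted p = 0.987).

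The remaining core and cap subunits, outside the rule for naming and given to complete the set, ran from -0.036 to 0.109 in Tg2576 vehicle against wild type. In the alpha ring Psma5 differed by 0.11 (SE 0.08), Psma7 by 0.068 (SE 0.04), Psma2 by 0.065 (SE 0.04) and Psma6 by 0.047 (SE 0.04). Psma7 read 449 to 504 in wild type and 471 to 533 in Tg2576 vehicle, where all 11 animals reached the wild-type median or lay above it. In the beta ring Psmb1 differed by 0.076, Psmb3 by 0.033 and Psmb4 by 0.0068, each within 2 standard errors of 0. Among the ATPases Psmc2 differed by 0.077 (SE 0.04, limma adjusted p = 0.429), Psmc3 by 0.055, Psmc4 by 0.029 and Psmc5 by 0.017. Psmc2 read 1002 to 1161 in wild type and 1038 to 1250 in Tg2576 vehicle, with 5 of 11 animals above the wild-type maximum. In the cap Psmd4, which binds ubiquitin chains, differed by 0.073, Psmd7, the partner of the deubiquitinase Psmd14, by 0.068, and Psmd13 by 0.055. Psmd14 itself differed by 0.048 and Psmd11 by -0.036, with standard errors of 0.04 and 0.07. The smallest adjusted p among these was that of Psmc2.

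The assembly and regulatory genes had medians nearer to 0. The chaperones of the 20S core, Psmg1 to Psmg4, lay above 0 in 4 of 4 genes with a median of 0.041, led by Psmg2 at 0.16 (SE 0.09, limma adjusted p = 0.504). The chaperones of the 19S base had a median of 0.021, with 2 of 3 above 0. Psmd9 read 92.7 to 137 in wild type and 66.9 to 112 in Tg2576 vehicle, a difference of -0.088 (SE 0.07, adjusted p = 0.689). Activators and the inhibitor had a median of 0.0022. Psme1, a subunit of the interferon-induced activator ring, differed by 0.0037, Psme3, the nuclear activator, by -0.0056, Psme4, the large single-chain activator, by 0.083, and Psmf1, an inhibitor of the core, by 0.0007, with adjusted p of 0.691 or above. The Psme4 value turned to -0.048 when its probe sets were averaged. Of the genes outside the proteasome, Psmc3ip differed by 0.12 (adjusted p = 0.649) and Psme3ip1 by 0.035 (adjusted p = 0.827).

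Averaged over the 47 genes as each animal's deviation from the gene mean, the score was -0.092 to 0.035 with a median of -0.040 in wild type, and -0.022 to 0.118 with a median of 0.014 in Tg2576 vehicle. It was -0.041 to 0.073 with a median of -0.0076 with TO901317. All 11 Tg2576 vehicle animals lay above the wild-type median, and 5 above the wild-type maximum, so the ranges overlapped. With TO901317 10 of 11 animals were above that median and 2 above that maximum. The highest scores, 0.118 and 0.116, belonged to Tg2576 vehicle replicates 2 and 4, whose array medians of 20.2 and 20.7 were at the low end of the range. Replicates 5 and 3 of that group had lower array medians still, 19.5 and 19.6, with scores of -0.014 and 0.054. Replicate 4 is one of the 2 arrays with a high Gapdh ratio. The part of array median and RNA integrity in the scores was not tested beyond the fits given here. Without both of those arrays, 39 of the 47 genes lay above 0 in Tg2576 vehicle against wild type, and the median difference was 0.061.

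The same score was taken by subcomplex. For the alpha ring it was -0.110 to 0.0091 with a median of -0.056 in wild type and -0.061 to 0.103 with a median of 0.066 in Tg2576 vehicle, and -0.103 to 0.097 with a median of 0.016 with TO901317. The alpha ring ranges overlapped in all 3 groups. The ATPase score had medians of -0.053, 0.030 and -0.010 in wild type, Tg2576 vehicle and TO901317, and the lid score medians of -0.033, 0.030 and -0.0096. The score of the core chaperones had means of -0.0013 ± 0.0753, 0.060 ± 0.109 and -0.058 ± 0.097 in the same order (SD, n = 11 each). In that subcomplex the treated animals ran from -0.192 to 0.146, across most of the range of the Tg2576 vehicle animals, -0.131 to 0.203. The inducible subunits had scores from -0.397 to 0.261 within wild type alone.

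**Figure D3:**
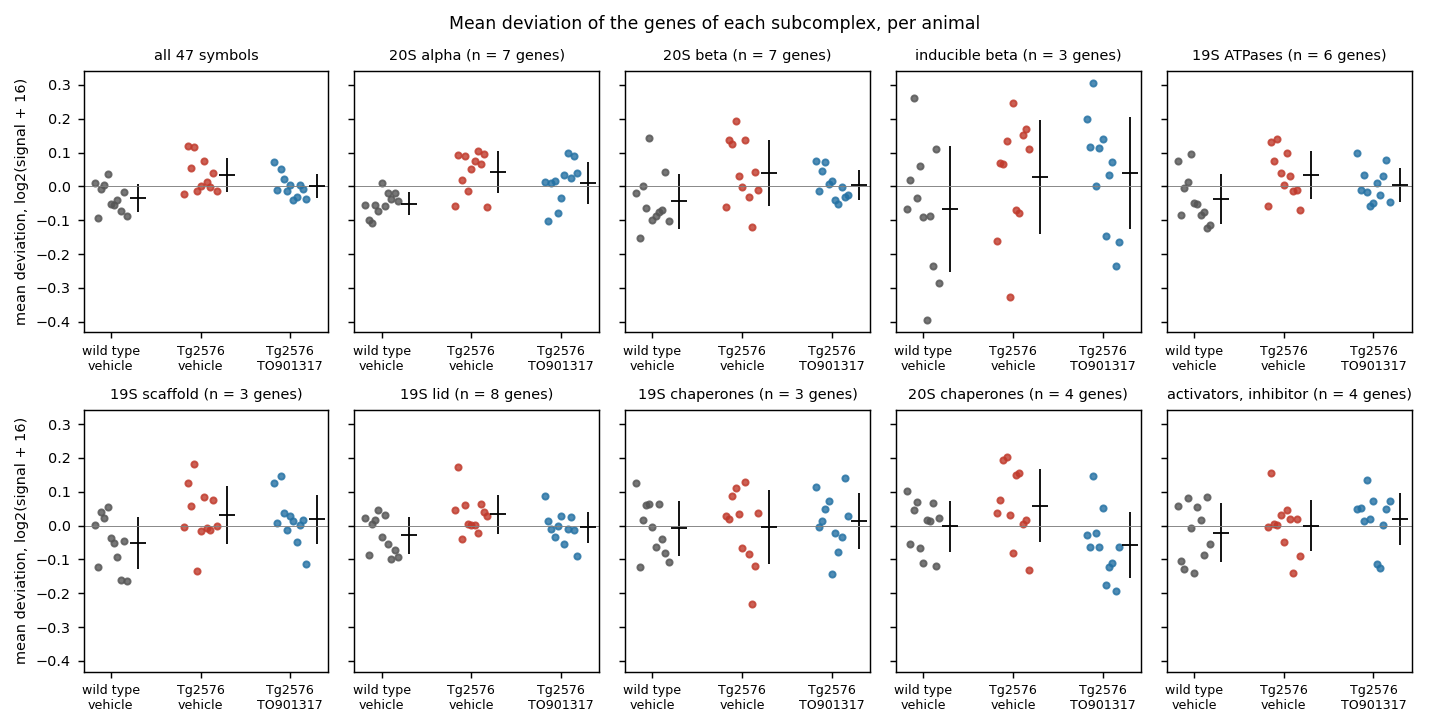
Mean deviation of each animal from the gene means (log2 scale), for all 47 genes and by subcomplex; points are animals and crosses give group means with vertical lines of ± 1 SD (11 animals per group). For all genes the wild-type mean is -0.034, the Tg2576 vehicle mean 0.033 and the TO901317 mean 0.0008, with overlapping ranges.

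Markers of other cell types moved between the same groups. Of 9 markers of meningeal fibroblasts, 9 lay above 0 in Tg2576 vehicle against wild type, with a median of 0.50, and Igfbp6 rose. Their summed signal was 560 to 2082 with a median of 958 in wild type, 848 to 2333 with a median of 1458 in Tg2576 vehicle, and 595 to 1729 with a median of 1195 with TO901317. The 9 astrocyte markers had a median of -0.16, with 2 above 0, and summed signals of 9490 to 12700 in wild type against 9152 to 11030 in Tg2576 vehicle. The 7 oligodendrocyte markers had a median of -0.19, with 0 above 0, and the 8 neuron markers one of -0.013, with 4 above 0. The 9 hippocampal pyramidal and dentate markers had a median of -0.023, with 3 above 0. Of these Tdo2 fell, by -0.77 (SE 0.13, limma adjusted p = 0.0013). The 7 endothelial markers had a median of -0.07, with 2 above 0. The 7 choroid plexus markers had a median of -0.12, with 2 above 0. The part of these cell types in the proteasome values was not tested. Microglia markers, 10 in number, had a median of 0.028, with 8 above 0.

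The second comparison set TO901317 against vehicle within Tg2576, and asked what the drug does. It shares the Tg2576 vehicle animals with the first comparison, so the differences of both rest on the same 11 animals. Proteasome genes mostly read slightly lower with the drug, and none passed. The difference was above 0 for 12 of the 47 genes, against 45.7% of all genes, with a median of -0.028 over the 47 genes and -0.010 over all genes. At a limma adjusted p under 0.05, 0 of 47 were called, against 0.293% of all genes (38 genes). At an unadjusted p under 0.05, 0 were higher, against 5.04%, and 4 were lower, against 6.59%. The 4 were Psmg4, Psmc3ip, Psmd12 and Psmd8, and that share is close to the share over all genes. Of the 9 meningeal fibroblast markers 0 lay above 0 in this comparison, with a median of -0.19, after 9 of 9 in the first comparison. The 7 choroid plexus markers all lay above 0, with a median of 0.31, and the 7 oligodendrocyte markers did with a median of 0.16. The astrocyte markers had a median of 0.086, with 5 of 9 above 0, the neuron markers one of 0.027, with 5 of 8 above 0, and the microglia markers one of 0.028, with 5 of 10 above 0. Summed choroid plexus signals ran from 177 to 7452 in Tg2576 vehicle and from 948 to 8686 with TO901317. Of 7 endothelial markers 5 lay above 0, and Slco1a4 rose. The part of these cell types was not tested. Without the 2 arrays of high Gapdh ratio, 18 of 47 lay above 0 and the median was -0.014.

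Psmg4, a chaperone that helps build the alpha ring, had the smallest p and the largest difference. It read 78.3 to 124 with a median of 97.3 in Tg2576 vehicle and 71.9 to 109 with a median of 85.9 with TO901317, against 85.6 to 105 with a median of 99.5 in wild type. With TO901317, 3 of 11 animals lay below the lowest Tg2576 vehicle animal and 4 above the median of that group. The difference was -0.20 (SE 0.06, unadjusted p = 0.00392, limma adjusted p = 0.188). Psmg2, which helps start the alpha ring, read 151 to 248 with a median of 206 in Tg2576 vehicle and 133 to 206 with a median of 179 with TO901317, a difference of -0.17 (SE 0.09, adjusted p = 0.457). Only 1 of 11 treated animals lay above the Tg2576 vehicle median of Psmg2. Psmg3, the partner of Psmg4, differed by -0.12 (adjusted p = 0.555) and Psmg1, the partner of Psmg2, by 0.015. The 4 chaperones together had a median of -0.15, with 1 above 0.

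The core and cap lay close to 0 in this comparison. The alpha ring was above 0 in 0 of 7 genes with a median of -0.030, and the constitutive beta ring in 1 of 7 with a median of -0.028. Psmb2 differed by -0.13 (SE 0.07, limma adjusted p = 0.512), Psmb5 by -0.043, Psmb6 by -0.057 and Psmb7 by -0.010. The ATPases were above 0 in 1 of 6 with a median of -0.032, the scaffold in 1 of 3 with a median of -0.027, and the lid in 3 of 8 with a median of -0.028. Psmd12 differed by -0.10 (adjusted p = 0.419), Psmd8 by -0.12 (adjusted p = 0.425), and Psmd3 by -0.12 (adjusted p = 0.448).

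Inducible subunits and regulators gave no common direction. Psmb8 differed by 0.10 (SE 0.12), Psmb9 by -0.0047 and Psmb10 by -0.065, and the 3 had a median of -0.0047. Activators and inhibitor had a median of 0.008, with 3 of 4 above 0, led by Psme3 at 0.11 (SE 0.06, limma adjusted p = 0.529). The base chaperones had a median of -0.0068, although Psmd9 differed by 0.12 (adjusted p = 0.556). Psmc3ip, the meiotic gene, differed by -0.19 (SE 0.09, adjusted p = 0.392) at signals of 15.6 to 48.5 in Tg2576 vehicle and 17.3 to 28.9 with TO901317.

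The last comparison set Tg2576 with TO901317 against wild type on vehicle, which differ in both genotype and drug. It shares its groups with the other comparisons, so its values are no separate support. Of the 47 genes 37 lay above 0, against 48.8% of all genes, with a median of 0.034, against -0.0025. At a limma adjusted p under 0.05, 0 were called, against 0.355% of all genes (46 genes). At an unadjusted p under 0.05, 6 were higher, against 4.09%, and 2 were lower, against 5.27%.

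Psmd6 had the smallest p here. It read 807 to 955 with a median of 900 in wild type and 904 to 1000 with a median of 969 in TO901317 animals, and 888 to 1031 with a median of 928 in Tg2576 vehicle. All 11 treated animals lay above the wild-type median and 7 above the wild-type maximum. The difference was 0.097 (SE 0.03, limma adjusted p = 0.284). Another bright Psmd6 probe set differed by 0.054 (SE 0.06), and correlated at -0.211 with the brightest one over 33 animals. With a mean over probe sets in place of the brightest, Psme3 and not Psmd6 had the smallest p (limma adjusted p = 0.439). By the brightest probe sets, the largest difference was that of the dim Psmb8, at 0.26 (SE 0.12, adjusted p = 0.46). The alpha ring was above 0 in 7 of 7 genes with a median of 0.054, the constitutive beta ring in 6 of 7 with 0.041, the ATPases in 5 of 6 with 0.047, and the lid in 6 of 8 with 0.024. The core chaperones had a median of -0.053, with 1 of 4 above 0, and Psmg4 differed by -0.14 (adjusted p = 0.47).

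Animals of 1 group differed from each other in a way that the subunits partly shared. Over deviations from the group means in 33 animals, the median Pearson correlation of 2 proteasome genes was 0.13 over 1081 pairs, and 68.6% of pairs were above 0. For the 31 core and cap subunits it was 0.198 over 465 pairs, with 75.3% above 0. For all pairs of genes tested it was 0.008, with 51.4% above 0. For genes of mean signal above 50 it was 0.022, with 53.6% above 0. Within single groups the proteasome median was 0.15 in wild type, 0.184 in Tg2576 vehicle and 0.1 with TO901317. These pairs share the same arrays and their scaling, and the values are descriptions.

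The subunits with the highest median correlation with the other 46 were Psmd4, a ubiquitin receptor, at 0.314 and Psmc4, an ATPase, at 0.297. These values belong to the brightest probe set of each gene. That of Psmc4 correlated at -0.489 with another Psmc4 probe set, so its rank need not hold for the other. Psmb1, a beta subunit, and Psmb6 correlated at 0.77. The lowest were Psmd14, the deubiquitinase of the lid, at -0.238, Psmd11, a lid subunit, at -0.206, and Psma5, an alpha subunit, at -0.193. Psmd14 correlated with Psma5 at 0.66 and with Psmb6 at -0.55. These genes were named after their values were seen.

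**Figure D4:**
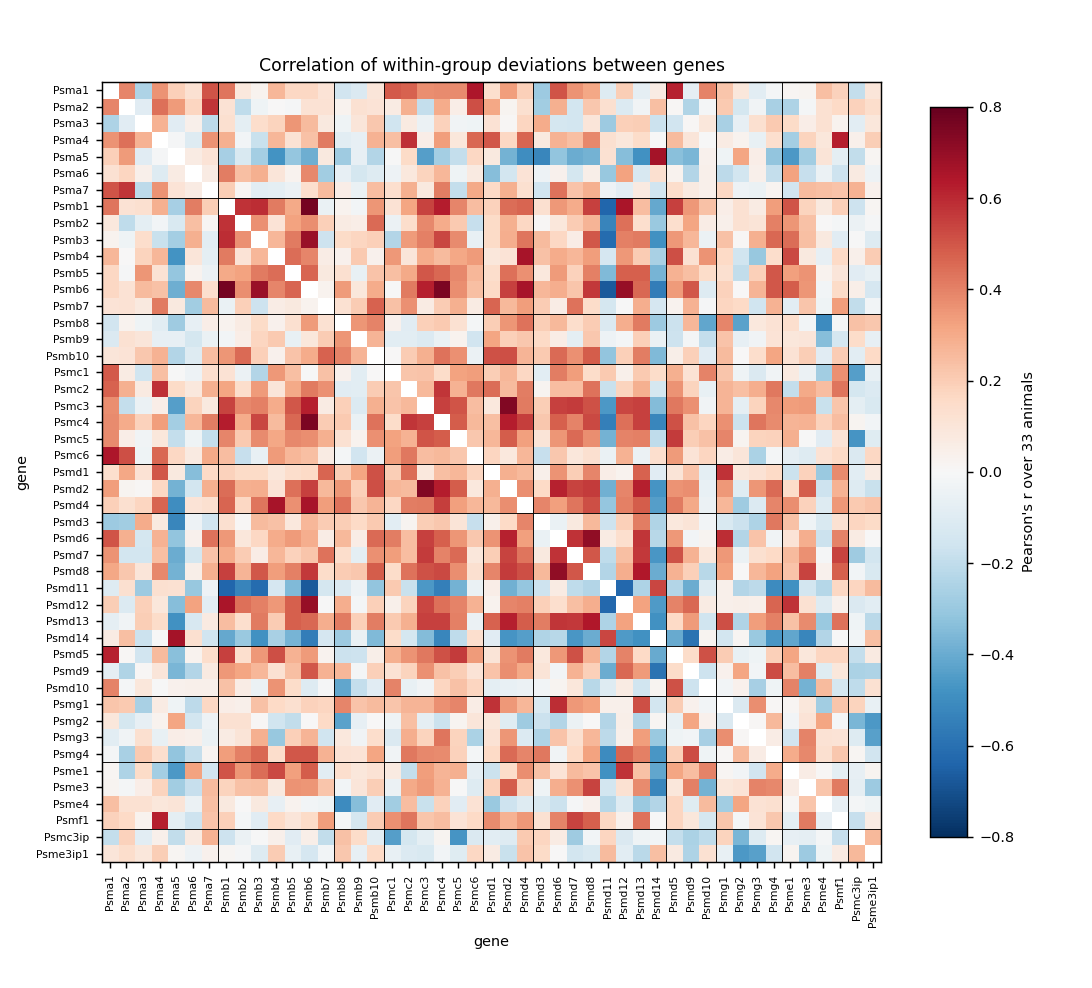
Pearson correlations of the 47 proteasome genes over deviations from the group means in 33 animals, ordered by subcomplex. Most pairs are above 0 (68.6%, against 51.4% of all pairs of genes tested). The rows of Psmd14, Psmd11 and Psma5 run below 0 against most other genes.

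Where a gene had more than 1 probe set brighter than 50, the probe sets could be set against each other. There were 20 such pairs in 15 genes. Their correlation over 33 animals was above 0 in 13 and below 0 in 7, with a median of 0.19. After Benjamini-Hochberg adjustment over the 20 permutation tests, 5 positive and 1 negative passed. The best pair was of Psmd11 (r = 0.779, rho = 0.736, permutation p = 1e-05 for each, the smallest that 100000 resamples give, adjusted p = 0.0002, r = 0.689 without the 2 most distant animals). The negative one was of Psmc4 (r = -0.489, rho = -0.463, permutation p = 0.00405 and 0.00717, adjusted p = 0.0203 and 0.0359, r = -0.386 without 2 animals). The probe sets of Psmd11 did not all go together. Its brightest also correlated at 0.498 with a probe set of mean signal 172, and at -0.173 with a probe set of mean signal 385. In Tg2576 vehicle against wild type, 17 of these 20 other probe sets had the sign of the brightest one, with a median difference of 0.072, and those of Psmb4, Psmd11 and Psme4 did not. In TO901317 against vehicle 15 of 20 did, and in TO901317 against wild type 14 of 20.

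Genes of the pathway outside the Psm symbols were read from lists, and no gene of 5 lists passed in any comparison. Of 10 other proteasome genes, 8 lay above 0 in Tg2576 vehicle against wild type, with a median of 0.054. Uchl5, a deubiquitinase bound to the cap, differed by 0.12 (SE 0.05, limma adjusted p = 0.322), and by 0.16 in TO901317 against wild type (adjusted p = 0.207). Pomp, which matures the core, differed by -0.085 in TO901317 against vehicle (adjusted p = 0.468). The 12 regulators of proteasome genes had a median of -0.047 in the first comparison, with 5 above 0. Nfya, a subunit of the CCAAT-binding factor, differed by -0.18 (adjusted p = 0.417), and by -0.32 in TO901317 against wild type (adjusted p = 0.112). Stat3, a cytokine-activated factor, differed by 0.31 in TO901317 against vehicle (adjusted p = 0.337).

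Ubiquitin genes and enzymes, 14 in number, had medians of 0.023, -0.0038 and 0.010 in these 3 comparisons, in the order given above. The 12 shuttle factors and partners of the p97 ATPase had medians of -0.0017, -0.021 and 0.0022. Among these Ufd1, which binds p97, differed by 0.18 in the first (SE 0.06, limma adjusted p = 0.139). The 17 antigen presentation and interferon genes had medians of 0.035, 0.052 and 0.097, with 12, 13 and 13 above 0. Irf7, an interferon regulator, differed by 0.32 in TO901317 against wild type (adjusted p = 0.442). None of these lists had a member at a limma adjusted p under 0.05.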

How the data were processed

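The authors deposited linear array intensity values made with MAS5, per the submitters' processing notes, which name no version or settings. Of 45101 probe sets, 34945 name 1 gene in the platform annotation, 932 name several and 64 are controls. Groups came from the labels. Each gene was read by its single-gene probe set of highest mean over 33 arrays, kept above a mean signal of 13, which left 12971 genes. Group means of log2(signal + 16) were fitted over the whole set of arrays by limma 3.58.1 under R 4.3.3 (eBayes with trend and robust), with p-values adjusted by Benjamini-Hochberg over all genes and a limit of 0.05. The procedure was tested on simulated data. The proteasome genes and the gene lists were chosen with earlier results of these data known. Genes named are, per subcomplex and comparison, that of the largest difference, and that of the smallest p per comparison and per list. Also named are the catalytic and inducible subunits, activators and inhibitor, and the genes that are not proteasome subunits or assembly factors. Others are said to be named after their values were seen. Motifs were searched in RefSeq windows of 250 bases. Precision is limited by having 11 arrays in each group. Alternatives covered the pseudocount, filter, normalization, probe set rule, groups in the fit, variance model, replicate number, Gapdh ratio, array median (chosen after seeing the data) and each array left out.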

Additional observations from a re-analysis of the deposited data

How the results depend on the processing

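No proteasome gene passed in any comparison under any pseudocount, filter, quantile normalization, probe set average, fit to the 2 groups compared, variance model or Gapdh covariate tried, nor without both arrays of high Gapdh ratio. With the array median in the fit, an alternative chosen after seeing the data, 1 passed in Tg2576 vehicle against wild type (Psmb2). Leaving out 1 array gave 0 to 2 proteasome genes there and 0 to 0 in the other comparisons. The count of all genes called ran from 22 to 55, from 20 to 42 (TO901317 against vehicle) and from 22 to 50 (TO901317 against wild type) when 1 array was left out. The median of the 47 genes ran from 0.058 to 0.078, from -0.038 to -0.018 and from 0.026 to 0.043. Over all genes, Tg2576 vehicle against wild type gave 30 calls, 59 with the Gapdh ratio and 72 with the array median in the fit. TO901317 against vehicle gave 38, 22 with no filter, 68 with the Gapdh ratio and 68 with the array median. TO901317 against wild type gave 46, 26 with no filter and 27 without trend or robust fitting. The cause of these differences was not tested. Without Psmc3ip and Psme3ip1, also chosen after seeing the data, the medians were 0.068, -0.027 and 0.041. For named genes, 46, 35 and 38 of 907 values per comparison changed sign.

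Replicate numbers run from 1 to 11 in each group, and no label says that they pair animals. Same-numbered animals correlated at -0.109 to 0.12, 0.044 to 0.194 and -0.019 to 0.218 in the 3 comparisons, with 1, 6 and 3 of 11 over 0.1. Their medians were 0.023, 0.1 and 0.08, against -0.02, -0.019 and -0.007 for animals of unlike number. Same-numbered animals thus deviated together weakly in the comparisons with TO901317, and the source of this was not tested. Because no label gives a pairing, the main fit did not take the numbers as pairs. With the replicate number as a block, 51 genes were called in Tg2576 vehicle against wild type, and no proteasome gene passed in any comparison; 1, 2 and 1 of 11 animals correlated best with their own number. The spread of 11 arrays per group and dim signals, as of Psmb8 and Psmb9, limit what could be detected.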
